A study of Mus musculus with 9 samples.

Results

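The comparison described here set MA9-IL-34 leukemia cells against MA9-c-Kit- leukemia cells. It used the 3 libraries of each group, 6 of the 9 libraries of the series. The other 3 libraries, from MA9-c-Kit+ cells, entered the fit for its estimate of the spread, and their levels are given only to place a gene. A gene was tested when it reached 1 TPM (transcripts per 1e6 transcripts) in at least 3 of the 9 libraries, which 13722 of the 55536 genes in the table did. MA9 cells are mouse acute myeloid leukemia cells driven by the fusion protein MLL-AF9. The article's supplement says that this leukemia was started in cells of C57B6.SJL mice and that female mice were used. All 3 groups were GFP+BFP+ cells, transplanted into C57BL/6J mice of 6 to 8 weeks that were not irradiated, and sorted from the bone marrow on day 18. MA9-IL-34 cells overexpressed IL-34 together with the fluorescent proteins, and the MA9 groups carried the control construct. The labels give the c-kit+ fraction for MA9-IL-34 cells and the c-kit- fraction of MA9 leukemia for the other group, so the construct and the sort differ together here and their parts cannot be told apart. Nothing says that replicates came from separate mice, and p-values then rest on the spread between these samples alone, which may be technical. In bulk RNA, fewer cells of a type and less RNA per cell cannot be told apart.

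c-Kit is the receptor of stem cell factor and marks immature blood cells. In MLL-AF9 leukemia the c-Kit+ fraction is enriched in cells that can start the disease anew, and the c-Kit- fraction holds cells that have moved further along the monocyte and granulocyte lineages. IL-34 is a cytokine that binds CSF1R, the receptor it shares with M-CSF, and in healthy tissue it maintains macrophages such as microglia and Langerhans cells.

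Libraries were of similar breadth, with 12577 to 12972 genes at 1 TPM or more, and a mitochondrial share of 8.79% to 10.01% in the 6 libraries compared. Depth is unknown, because TPM values hold no counts of reads. Over the tested genes, Spearman's coefficient was 0.817 to 0.846 between libraries of the groups compared. In the 6 libraries, 5 defining T and NK markers summed to 0.05 to 0.94 TPM and 4 defining B markers to 0.31 to 0.61 TPM. Wider lists were not at that floor. The T and NK list held Nkg7, given below, and the B and plasma cell list summed to 63.1 to 93.6 TPM in MA9-IL-34 and 70.2 to 204 TPM in MA9-c-Kit- libraries, with 0 of 4 measured genes (12 listed) called. The 6 neutrophil markers summed to 29.5 to 76.5 and 165 to 214 TPM, and the 7 monocyte and macrophage markers to 1848 to 1968 and 2770.4 to 5210.1 TPM. Mmp8 alone, at 162 to 211 TPM, held nearly all of the neutrophil sum in MA9-c-Kit- libraries. Camp, Ngp and Ltf went the other way and were higher in every MA9-IL-34 library. Ly6c2 held most of the monocyte and macrophage sum in both groups. Of these markers Ly6g, Cxcr2 and Fcgr1 were under 1 TPM in every library. Erythroid RNA stood out in a single library. Of 6 measured erythroid genes (11 listed) 2 were lower in MA9-IL-34 cells, and 4 without MA9-c-Kit- replicate 2. The 4 erythroid markers summed to 1489.8 TPM in MA9-c-Kit- replicate 3, to 30.0 and 10.1 TPM in replicates 1 and 2, and to 1.25 to 1.91 TPM in MA9-IL-34 libraries. Hbb-bs, the adult beta globin, was at 16.1, 1.52 and 1031 TPM in the MA9-c-Kit- libraries and did not pass the test (limma, log2 fold change -4.32 with a standard error of 1.85, adjusted p = 0.0797), though it did without MA9-c-Kit- replicate 2. Without MA9-c-Kit- replicate 3, 3465 genes differed in place of the 3297 given below, and 3069 were shared.

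Xist had the largest rise of all genes tested. It encodes the RNA that coats and silences 1 X chromosome in female cells (chromosome X of GRCm38, 103460366 to 103483254). Values here and below are those of replicates 1, 2 and 3, in that order. Its level was 453, 331 and 371 TPM in MA9-IL-34 and 0.04, 0.08 and 0.02 TPM in MA9-c-Kit-, with 0.28, 0.23 and 0.06 TPM in MA9-c-Kit+ libraries (limma, log2 fold change 8.51 with a standard error of 0.16, adjusted p = 2.13e-08). Xlr and Xlr4a, members of an X-linked lymphocyte-regulated family, followed the same split. Xlr was at 152, 135 and 108 TPM in MA9-IL-34 libraries and at most 0.35 TPM in all 6 others. Xlr4a was at 43.6, 40.1 and 37.9 TPM in MA9-IL-34 libraries and at most 0.68 TPM in the others. The Xlr genes are near-identical copies, so their reads may be divided uncertainly. Other genes were looked at after these values were seen. Jpx and Ftx, which lie beside Xist, were at 8.25 to 9.82 and 4.40 to 4.93 TPM in MA9-IL-34 libraries and at 5.52 to 6.26 and 3.79 to 4.39 TPM in MA9-c-Kit- libraries. In MA9-c-Kit+ libraries, where Xist was at most 0.28 TPM, Jpx was at 8.71 to 10.86 and Ftx at 4.22 to 6.09 TPM. The article gives the mice used as female. The Y-linked genes Ddx3y and Eif2s3y were listed at 0 in all 9 libraries, and Kdm5d and Uty did not exceed 0.1 TPM. Of 5 genes assigned to chromosome Y that passed the filter, 2 were higher and 1 lower. Those higher were Gm47283 and Mid1-ps1, a pseudogene of the X-linked Mid1, and both may share reads with near-identical copies. On chromosome X, 57 of 387 tested genes were higher and 40 lower. These are 14.7% and 10.3%, beside 11.3% and 12.7% of all genes tested. Chromosomes 14 and 16 had similar shares of higher genes, 14.5% and 14.2%. The median log2 fold change on chromosome X was 0.22 against 0.06 over all genes. The library kit named in the labels does not mark strand, so reads of Xist and its antisense partner Tsix cannot be told apart. The MA9-IL-34 cells and the MA9 cells were infected separately, and a difference of the infected cells that was already there cannot be told apart from an effect of IL-34 in any result that follows.

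**Figure D1:**
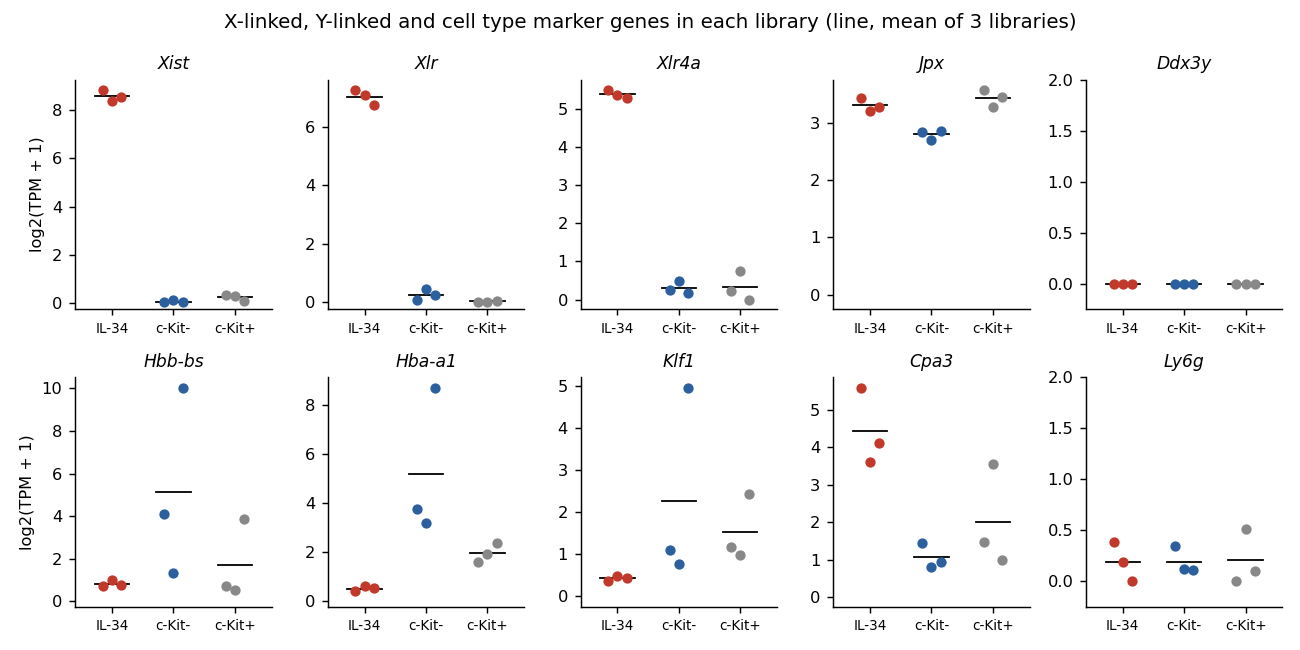
Level of 10 genes in each library as log2(TPM + 1), by group, with points for the 3 libraries and a line for their mean. Xist, Xlr and Xlr4a are high only in the MA9-IL-34 libraries, Ddx3y is at 0 in all 9, and Hbb-bs, Hba-a1 and Klf1 are high in MA9-c-Kit- replicate 3.

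Levels were compared as log2(TPM + 1), on which fold changes of low genes come out too small. Of the 13722 genes tested, 3297 (24.0%) differed by 2-fold or more with an adjusted p below 0.05 in limma (Benjamini-Hochberg). MA9-IL-34 cells had higher levels of 1557 genes (11.3%) and lower levels of 1740 (12.7%). Falls were larger than rises. The median size was 1.69 on the log2 scale among the lower genes and 1.42 among the higher genes, and 159 genes fell by more than 16-fold where 49 rose by as much. Genes called lower held 14.7% to 18.0% of all TPM in MA9-c-Kit- libraries and 2.88% to 3.11% in MA9-IL-34 libraries. Genes called higher held 11.2% to 11.9% of TPM in MA9-IL-34 libraries and 3.22% to 4.01% in MA9-c-Kit- libraries. The levels of the groups did not overlap for 1542 of the higher and 1730 of the lower genes, beside 64.0% of all genes tested. On and off patterns were more frequent among the lower genes. At no more than 0.5 TPM in every library of the lower group and at least 5 TPM in every library of the other, 122 genes were off in MA9-IL-34 cells and 50 in MA9-c-Kit- cells. Protein-coding genes made up 1331 of the higher and 1480 of the lower genes, and long intergenic RNAs 70 and 67. Called genes are described below by lists of known function, in which a measured gene is one that passed the filter, and the number listed is given in brackets where it was larger. The lists and their members were chosen with earlier results of these data known. Their counts are therefore descriptions, also where they stand beside the share over all genes. Where no share is repeated, the 11.3% higher and 12.7% lower of all genes apply.

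**Figure D2:**
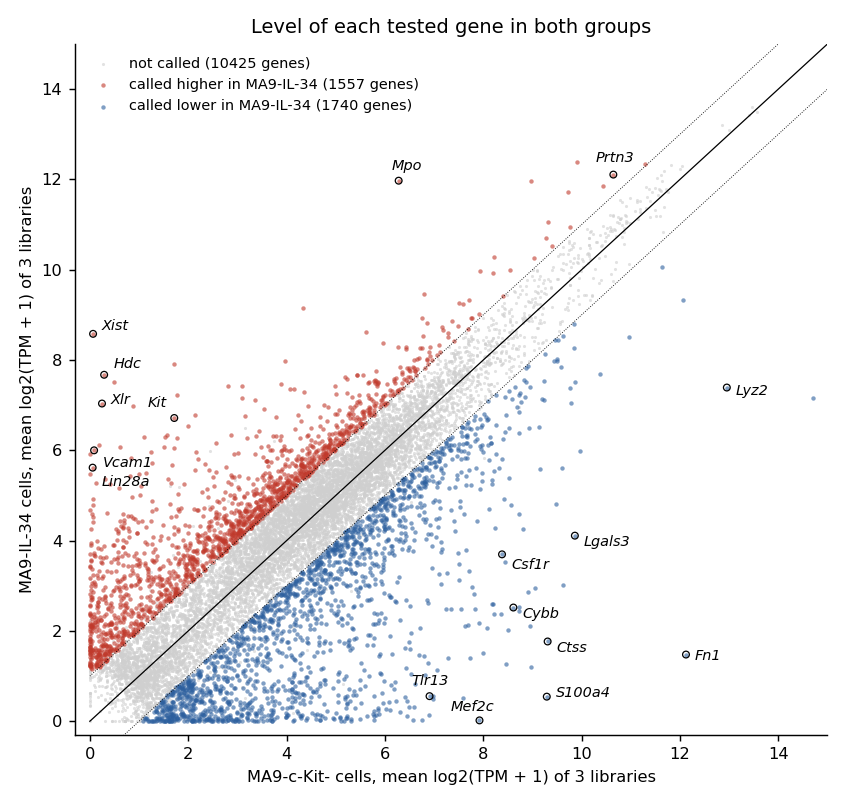
Mean log2(TPM + 1) of the 3 MA9-c-Kit- libraries on the x axis and of the 3 MA9-IL-34 libraries on the y axis, a point per tested gene, with the line of equal levels and dotted lines at a 2-fold difference. The 1557 higher genes lie above and the 1740 lower genes below, and Fn1, S100a4, Lyz2 and Mef2c are far below the line.

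Kit, the gene of the surface protein used for the sort, was at 112, 90.5 and 111 TPM in MA9-IL-34 and 2.46, 2.9 and 1.63 TPM in MA9-c-Kit- (limma, log2 fold change 5.0 with a standard error of 0.24, adjusted p = 9.76e-07). The sort fixed the direction of this difference beforehand, so it is a check of the sort and no finding. The receptor of the cytokine went the other way. Csf1r was at 9.55, 13.1 and 13.6 TPM in MA9-IL-34 and 368, 340.02 and 294 TPM in MA9-c-Kit-, and 40.8, 141 and 25.6 TPM in the MA9-c-Kit+ libraries, where replicate 2 stood above both others (limma, log2 fold change -4.69 with a standard error of 0.50, adjusted p = 9.11e-05). The further IL-34 binding proteins were close to absent. Ptprz1, a receptor phosphatase, was listed at 0 in all libraries. Sdc1, which encodes syndecan-1, was at 0, 0.02 and 0.04 TPM in MA9-IL-34 and at 0.56, 1.39 and 1.28 TPM in MA9-c-Kit- libraries and did not pass the filter. Mouse Il34 was at 0.11, 0.10 and 0.14 TPM in MA9-IL-34 libraries and listed at 0 in the others. The study's PCR primers for IL-34 are named for the human gene, and reads of a human sequence may not be counted by a mouse gene model, so this value may not measure the overexpressed IL-34. Csf1, the other ligand of CSF1R, was at 1.01 to 2.03 TPM in MA9-IL-34 libraries and 1.06 to 2.21 TPM in MA9-c-Kit- libraries, which overlap. Csf1 was named after its values were seen, as were Meis1, Mx1, Zbp1, Dhx58, Oas1a, Rtp4 and Mcpt8 below.

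Genes for proteins of primary granules, the first granules that promyelocytes make, were mostly higher in MA9-IL-34 cells. Of 10 measured genes (11 listed) 7 rose and 1 fell, at a median log2 fold change of 2.07. Mpo, the myeloperoxidase of these granules, was at 2936, 4258 and 5184 TPM in MA9-IL-34 and 109, 153 and 26.8 TPM in MA9-c-Kit- (limma, log2 fold change 5.69 with a standard error of 0.72, adjusted p = 0.000236). MA9-c-Kit- replicate 3 held the lowest level, and the lowest MA9-IL-34 library was still above the highest of the other group. The serine proteases rose less from a high start. Elane, the neutrophil elastase, was at 4253, 6032 and 6046 TPM in MA9-IL-34 and 935, 1349 and 701 TPM in MA9-c-Kit- (limma, log2 fold change 2.48 with a standard error of 0.26, adjusted p = 7.39e-05). Prtn3, or proteinase 3, was at 3859, 4668 and 4765 TPM in MA9-IL-34 and 1399.5, 1916 and 1531 TPM in MA9-c-Kit- (limma, log2 fold change 1.46 with a standard error of 0.18, adjusted p = 0.00019). Ctsg, which encodes cathepsin G, was at 4105, 3843 and 4005 TPM in MA9-IL-34 and 472, 553 and 488 TPM in MA9-c-Kit- (limma, log2 fold change 2.98 with a standard error of 0.14, adjusted p = 7.58e-07). Prss57, a further protease of this granule, had a log2 fold change of 4.76, and Srgn, the proteoglycan core that packs granule proteases, of 1.72. Groups did not overlap for any of these genes, which also held for 1542 of the 1557 genes called higher and for 64.0% of all genes tested. Ctsc, the peptidase that trims elastase, cathepsin G and proteinase 3 to their active forms, fell. It was at 4.77, 5.14 and 4 TPM in MA9-IL-34 and 129.6, 164 and 161 TPM in MA9-c-Kit- (limma, log2 fold change -4.76 with a standard error of 0.17, adjusted p = 1.99e-07).

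The promoters of these genes were searched for GAGGAAGT, a word bound by PU.1, the ETS factor that controls granule and macrophage genes alike. The window was 250 bases before to 50 after the RefSeq start, on both strands. The word was present in 4 of the 8 primary granule promoters that were at hand, among them those of Mpo, Elane and Prtn3, all higher, and that of Ctsc, lower. It was in 4.13% of the promoters of all tested genes, in 3.40% of those of genes called higher and in 5.98% of those of genes called lower. The stretches below are shown since they place 1 word in genes that moved in opposite directions. They lie before the start, are written 5′ to 3′ on the strand of the gene, come from RefSeq on GRCm38.p6, and have the word in capitals, where ACTTCCTC is the word on the opposite strand. Prtn3 is read from the plus strand (chr10:79879541-79879610), Prom1 from the minus strand (chr5:44094801-44094870), Ctsc from the plus strand (chr7:88277903-88277972), Pirb from the minus strand (chr7:3720464-3720533) and Mmp8 from the plus strand (chr9:7558179-7558248).
Prtn3: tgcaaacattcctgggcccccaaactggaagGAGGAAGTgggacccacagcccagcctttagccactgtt
Prom1: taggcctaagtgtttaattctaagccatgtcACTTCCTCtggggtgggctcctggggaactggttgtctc
Ctsc: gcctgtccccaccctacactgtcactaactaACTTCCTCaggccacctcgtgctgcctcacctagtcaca
Pirb: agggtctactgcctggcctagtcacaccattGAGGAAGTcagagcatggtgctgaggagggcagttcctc
Mmp8: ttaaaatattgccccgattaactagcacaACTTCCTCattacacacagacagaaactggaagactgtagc
Prtn3 and Prom1 were higher and the other 3 lower in MA9-IL-34 cells. Spi1, the gene of PU.1, was at 312, 335 and 357 TPM in MA9-IL-34 and 633, 569 and 589.7 TPM in MA9-c-Kit-. The groups did not overlap, but its change was below the 2-fold limit (log2 fold change -0.83, adjusted p = 0.000149, limma). A match is a description of the letters and no evidence of binding.

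Most transcription factors of the myeloid lineages that changed were lower. Of 24 measured factors (26 listed) 11 fell and 2 rose, at a median log2 fold change of -0.97. Irf5 and Irf8, interferon regulatory factors of macrophages, monocytes and dendritic cells, were nearly lost. Irf5 was at 2.9, 3.75 and 2.63 TPM in MA9-IL-34 and 459, 334 and 303 TPM in MA9-c-Kit- (limma, log2 fold change -6.47 with a standard error of 0.19, adjusted p = 9.34e-08). Irf8 was at 8.05, 5.76 and 6.45 TPM in MA9-IL-34 and 551, 628 and 434 TPM in MA9-c-Kit- (limma, log2 fold change -6.11 with a standard error of 0.40, adjusted p = 5.72e-06). Klf4, which drives monocyte differentiation, was at 0.13, 1.05 and 0.35 TPM in MA9-IL-34 and 179.8, 139 and 78.3 TPM in MA9-c-Kit- (limma, log2 fold change -6.43 with a standard error of 0.58, adjusted p = 3.51e-05). Rara, the retinoic acid receptor alpha, fell by 4.85 on the log2 scale. The 2 factors that rose are known from granulocytes. Gfi1, a repressor that steers progenitors away from the monocyte fate, was at 169, 156 and 187 TPM in MA9-IL-34 and 5.42, 10.9 and 7.09 TPM in MA9-c-Kit- (limma, log2 fold change 4.33 with a standard error of 0.27, adjusted p = 3.85e-06). Cebpe, needed for late granulocyte maturation, was at 122, 109.9 and 126 TPM in MA9-IL-34 and 23.3, 10.2 and 4.87 TPM in MA9-c-Kit- (limma, log2 fold change 3.36 with a standard error of 0.69, adjusted p = 0.00351). Genes of later neutrophil granules had no common direction. Of 17 measured (22 listed), 5 fell and 2 rose, beside 12.7% and 11.3% of all genes. Camp and Ngp, both of secondary granules, had log2 fold changes of 3.51 and 2.91 from low levels, with at most 27.7 and 45.2 TPM in MA9-IL-34 libraries. Mmp8, the neutrophil collagenase, was at 0.24, 0.96 and 0.21 TPM in MA9-IL-34 and 202, 162 and 211 TPM in MA9-c-Kit-. Lcn2 and Cd177 fell by 2.72 and 2.35 on the log2 scale. Chil3, a chitinase-like protein of neutrophils and macrophages, was the most abundant gene of this group and the least even. It was at 18.5, 1176 and 127 TPM in MA9-IL-34 and 26916, 29944 and 23879 TPM in MA9-c-Kit- (limma, log2 fold change -7.55 with a standard error of 1.42, adjusted p = 0.00217). MA9-IL-34 replicate 2 stood far above its group but below every MA9-c-Kit- library.

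**Figure D3:**
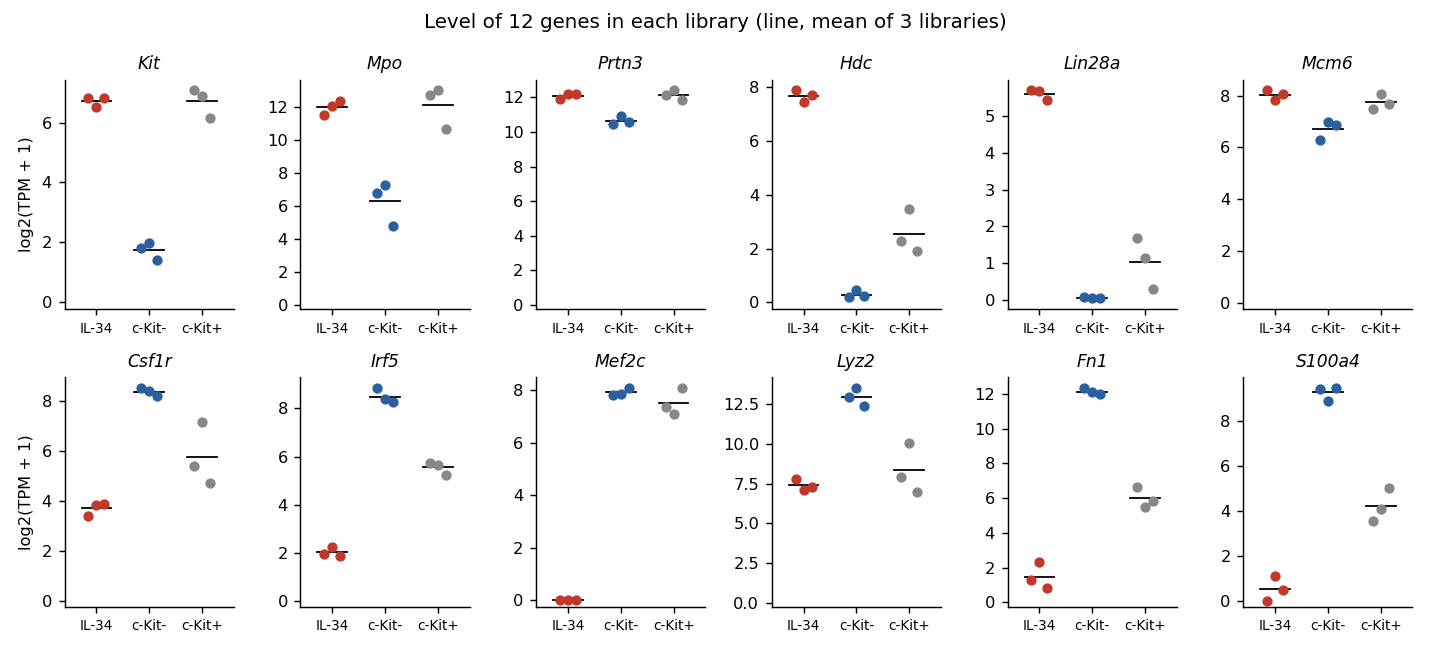
Level of 12 genes in each library as log2(TPM + 1), by group, with points for the 3 libraries and a line for their mean. Kit, Mpo, Prtn3, Hdc, Lin28a and Mcm6 are higher in all 3 MA9-IL-34 libraries than in any MA9-c-Kit- library, and Csf1r, Irf5, Mef2c, Lyz2, Fn1 and S100a4 are lower. The c-Kit+ libraries stand near MA9-IL-34 for Kit and Mpo and near MA9-c-Kit- for Mef2c.

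The listed monocyte and macrophage markers fell almost as a block. Of 24 measured markers (28 listed) 20 fell and 0 rose, and all 24 had a negative log2 fold change, with a median of -3.37 (with no minimum fold 21 passed an adjusted p of 0.05 in limma, beside 23.4% of all genes lower). Fn1, which encodes the matrix protein fibronectin, changed most of all genes named here. It was at 1.44, 3.94 and 0.79 TPM in MA9-IL-34 and 5111, 4352 and 3987 TPM in MA9-c-Kit- (limma, log2 fold change -10.65 with a standard error of 0.38, adjusted p = 1.99e-07). Lyz2, the lysozyme of myeloid cells, was at 223, 135 and 154 TPM in MA9-IL-34 and 7805, 11715 and 5461 TPM in MA9-c-Kit- (limma, log2 fold change -5.56 with a standard error of 0.66, adjusted p = 0.000165). Ctss, a cathepsin of antigen-presenting cells, was at 1.96, 2.88 and 2.43 TPM in MA9-IL-34 and 637, 581 and 687 TPM in MA9-c-Kit- (limma, log2 fold change -7.54 with a standard error of 0.17, adjusted p = 3.28e-08). Lgals3, or galectin-3, was at 23.1, 15.3 and 12.1 TPM in MA9-IL-34 and 907, 913 and 973 TPM in MA9-c-Kit-. The groups were far apart in each of these genes. Ccr2, which leads monocytes out of the marrow, was at 23.9, 25.1 and 24.98 TPM in MA9-IL-34 and 188, 176 and 126 TPM in MA9-c-Kit-. Cd14, the coreceptor for lipopolysaccharide, was at 4.05, 10.8 and 7 TPM in MA9-IL-34 and 366, 287 and 98.4 TPM in MA9-c-Kit-, so MA9-c-Kit- replicate 3 held the least of its group. Ly6c2, a surface protein of classical monocytes, kept a high level in both groups, 1867, 1774 and 1828 TPM in MA9-IL-34 and 3438, 4349.9 and 2203 TPM in MA9-c-Kit-. Its log2 fold change of -0.81 was below the 2-fold limit (adjusted p = 0.0397, limma), and without MA9-c-Kit- replicate 3 or with quantile normalization the gene was counted as lower. Itgam lost its call under 5 of the alternatives, namely with no filter, without MA9-c-Kit- replicate 1 or 3 and without MA9-IL-34 replicate 2 or 3. S100a4, a small calcium-binding protein, belonged to the largest falls. It was at 0, 1.17 and 0.43 TPM in MA9-IL-34 and 704, 487 and 716 TPM in MA9-c-Kit- (limma, log2 fold change -8.75 with a standard error of 0.38, adjusted p = 5.99e-07). S100a6 fell by 6.28, Tpm4 by 6.32, Lsp1 by 6.60, Vim by 2.44 and Tmsb10 by 2.74 on the log2 scale.

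Among receptors that sense microbes and particles, those that changed were mostly lower. Of 20 Toll-like receptors and adaptors (23 listed) 10 fell and 0 rose (median log2 fold change -0.998). Tlr13, a sensor of bacterial ribosomal RNA in mice, was at 0.48, 0.73 and 0.24 TPM in MA9-IL-34 and 157, 109 and 98.8 TPM in MA9-c-Kit- (limma, log2 fold change -6.35 with a standard error of 0.30, adjusted p = 8.81e-07). Tlr2 and Tlr8 fell by 5.32 and 4.83, and Unc93b1, which carries endosomal Toll-like receptors to their compartment, by 1.66 on the log2 scale. Of 25 Fc, C-type lectin and scavenger receptors (29 listed) 13 fell and 1 rose (median -1.48). Pirb, an inhibitory immunoglobulin-like receptor, was at 6.49, 4.87 and 3.31 TPM in MA9-IL-34 and 517, 397 and 375 TPM in MA9-c-Kit- (limma, log2 fold change -6.21 with a standard error of 0.32, adjusted p = 1.35e-06). Clec4a1, Clec4a3 and Clec5a fell by 5.56, 4.57 and 3.02. Pirb and the Clec4a genes have close copies in the genome, which may share reads. The member that rose was Trem3, at 161, 173 and 176 TPM in MA9-IL-34 and 49.7, 60.4 and 59.7 TPM in MA9-c-Kit-. Their common signalling chains changed less, with log2 fold changes of -0.84 for Fcer1g and -0.66 for Tyrobp, below the limit, which Fcer1g passed with quantile normalization. The formyl peptide receptor Fpr2 and the lipid receptor Trem2 were off in MA9-IL-34 cells. Fpr2 was at 0, 0.15 and 0.14 TPM in MA9-IL-34 and 157, 96.4 and 107 TPM in MA9-c-Kit- and Trem2 at 0.01, 0.22 and 0.22 TPM in MA9-IL-34 and 84.5, 73.1 and 78.1 TPM in MA9-c-Kit-.

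Lysosomal genes fell in part. Of 35 measured 14 fell and 1 rose, with a median of -0.63. Ctsl and Psap, a protease and the precursor of the saposins, had log2 fold changes of -4.37 and -2.68. Cd63, a tetraspanin of lysosomes and of granule membranes, rose, at 611, 559 and 548 TPM in MA9-IL-34 and 25.2, 18.2 and 15.1 TPM in MA9-c-Kit- (limma, log2 fold change 4.83 with a standard error of 0.19, adjusted p = 3.03e-07). The proton pump that acidifies these compartments had a single call. Of 15 subunits (16 listed) 1, Atp6v1g1, fell by 1.55 and 0 rose. Of 8 genes of the phagocyte oxidase 1 fell and 1 rose, near the share over all genes. Cybb, the catalytic subunit, was at 3.49, 7.95 and 3.68 TPM in MA9-IL-34 and 433, 359.6 and 382 TPM in MA9-c-Kit- (limma, log2 fold change -6.09 with a standard error of 0.27, adjusted p = 5.99e-07). Cyba, its membrane partner, was at 570.1, 557 and 557 TPM in MA9-IL-34 and 532, 577 and 549 TPM in MA9-c-Kit-, which overlap. Hvcn1, a proton channel that sustains the oxidase and is no subunit of it, rose by a log2 fold change of 2.16. MHC class II presentation had 5 lower and 1 higher of 12 genes (13 listed), beside 12.7% and 11.3% of all genes. The costimulatory ligands Cd86 and Cd40 were at 10.5, 8.19 and 6.78 and 9.45, 13.6 and 10.6 TPM in MA9-c-Kit- libraries and at most 0.21 and 0.04 TPM in MA9-IL-34 libraries, while H2-Ab1, a class II chain, was higher, at 37.8, 36.4 and 38.2 TPM in MA9-IL-34 and 5.66, 13.7 and 9.2 TPM in MA9-c-Kit-. MHC class I genes had 3 lower and 2 higher of 17, near the share over all genes. Among complement and coagulation genes 9 of 19 (23 listed) fell and 4 rose, and 1 rose with a filter of 5 TPM. The 4 were C1qa, C1qc, F7 and Tfpi, given in full after the calls were seen. F7, coagulation factor VII, was higher, at 95.2, 66.8 and 76.3 TPM in MA9-IL-34 and 9.97, 11.9 and 22.2 TPM in MA9-c-Kit-.

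Chemokine and cytokine receptor genes were lower as well. Of 13 measured chemokines and their receptors (24 listed) 11 fell and 0 rose, with a median of -2.25. Ccl6, a chemokine of myeloid cells in mice, was at 4.13, 5.11 and 3.55 TPM in MA9-IL-34 and 351, 269 and 277 TPM in MA9-c-Kit- (limma, log2 fold change -5.83 with a standard error of 0.20, adjusted p = 1.99e-07). Ccl9 was at 237, 264 and 249.9 TPM in MA9-IL-34 and 736, 862 and 592 TPM in MA9-c-Kit-. Cxcl2, which recruits neutrophils, was at 0.48, 1.44 and 0.71 TPM in MA9-IL-34 and 18.8, 31.2 and 9.72 TPM in MA9-c-Kit-. Cxcr4, which holds cells in the marrow, was at 256, 268 and 317 TPM in MA9-IL-34 and 830.4, 656 and 425 TPM in MA9-c-Kit- (limma, log2 fold change -1.13 with a standard error of 0.22, adjusted p = 0.00281), and without MA9-c-Kit- replicate 1 it was no longer past the 2-fold limit. Of 25 cytokine receptors (30 listed) 17 fell and 1 rose (median -1.09). Lifr, a receptor subunit for leukemia inhibitory factor, was at 0.03, 0.03 and 0 TPM in MA9-IL-34 and 159, 72.4 and 107 TPM in MA9-c-Kit- (limma, log2 fold change -6.73 with a standard error of 0.32, adjusted p = 8.95e-07). Its partner Il6st, or gp130, was at 0.24, 0.19 and 0.13 TPM in MA9-IL-34 and 59.1, 69.01 and 44.8 TPM in MA9-c-Kit-. Il13ra1 and Il10ra were off in MA9-IL-34 cells by the same measure, at 62.5, 46.9 and 66.3 and 84.1, 62.3 and 34.7 TPM in MA9-c-Kit- libraries. Csf2ra, the GM-CSF receptor chain, was at 538, 562 and 632 TPM in MA9-IL-34 and 826, 955 and 726 TPM in MA9-c-Kit- and stayed below the limit (log2 fold change -0.53). Il21r, the IL-21 receptor, was the one that rose, at 19.6, 16.3 and 20.3 TPM in MA9-IL-34 and 1.19, 1.34 and 1.07 TPM in MA9-c-Kit-. Among 14 cytokines and mediators (23 listed) 5 fell and 1 rose, beside 12.7% and 11.3% of all genes. Il1b, or interleukin 1 beta, was at 0.14, 0.97 and 0.33 TPM in MA9-IL-34 and 21.2, 22.97 and 8.53 TPM in MA9-c-Kit-. Vegfa, the endothelial growth factor, was the gene that rose, at 87.6, 87.7 and 100.3 TPM in MA9-IL-34 and 3.25, 4.3 and 1.77 TPM in MA9-c-Kit- (limma, log2 fold change 4.55 with a standard error of 0.28, adjusted p = 4.11e-06).

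The interferon-response list held opposite groups. Of 25 measured genes (29 listed) 7 fell and 5 rose, with a median of -0.57. Ifitm genes, membrane proteins that restrict virus entry, were 4 of the 7 that fell, beside Mx1, Zbp1 and Dhx58. Ifitm6 was at 0.65, 1.73 and 1.65 TPM in MA9-IL-34 and 581, 472 and 449 TPM in MA9-c-Kit- (limma, log2 fold change -7.77 with a standard error of 0.35, adjusted p = 6.06e-07). Ifitm3 was at 3.02, 1.33 and 1.47 TPM in MA9-IL-34 and 244, 407 and 162 TPM in MA9-c-Kit- and Ifitm1 and Ifitm2 fell by 3.98 and 1.58 on the log2 scale. The genes that rose were Ifit2, Oas1a, Oas2, Rtp4 and Ddx58. Ddx58, the RNA sensor RIG-I, was at 19.9, 10.3 and 13.8 TPM in MA9-IL-34 and 1.47, 2.43 and 0.63 TPM in MA9-c-Kit-. Oas2 and Ifit2 had log2 fold changes of 1.62 and 1.54. The Ifitm genes lie in a cluster of close copies.

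Matrix genes and most adhesion genes that changed were lower. Of 18 selectins, matrix proteins and proteases (27 listed) 12 fell and 0 rose, with a median of -2.13. Tgfbi, a matrix protein induced by TGF-beta, was at 4.39, 4.65 and 3.63 TPM in MA9-IL-34 and 358, 228 and 433 TPM in MA9-c-Kit- (limma, log2 fold change -5.98 with a standard error of 0.23, adjusted p = 2.9e-07). Emilin2 and Adam8 fell by 5.01 and 3.99 on the log2 scale. Integrins had 5 lower and 1 higher of 14 (19 listed), and 3 lower without MA9-IL-34 replicate 3 or without MA9-c-Kit- replicate 1. Itgb7 was at 9.47, 3.09 and 4.06 TPM in MA9-IL-34 and 333, 313 and 234 TPM in MA9-c-Kit- (limma, log2 fold change -5.60 with a standard error of 0.57, adjusted p = 7.11e-05). Itga9 rose by 2.39 from at most 0.23 TPM. Vcam1, the partner of integrin alpha 4 that is known from endothelium and macrophages, belonged to the largest rises, at 55.8, 70.4 and 63.6 TPM in MA9-IL-34 and 0.15, 0 and 0.04 TPM in MA9-c-Kit- (limma, log2 fold change 5.91 with a standard error of 0.16, adjusted p = 8.53e-08). Of 4 endothelial and stromal markers, Cdh5 and Kdr did not exceed 0.11 TPM and Col1a1 1.05 TPM in these libraries, and Lepr was at 24.5 to 28.6 TPM in MA9-IL-34 and 60.2 to 68.7 TPM in MA9-c-Kit-. In the wider endothelial and stromal list, 1 of 3 measured genes (12 listed) was higher and 1 lower. That list summed to 130 to 178 TPM in MA9-IL-34 and 106 to 155 TPM in MA9-c-Kit- libraries. The part of endothelial and stromal cells in the Vcam1 result was not tested.

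Regulators of stem and progenitor cells moved both ways. Of 24 measured (29 listed) 6 rose and 4 fell, with a median of 0.30. Hoxa9, which MLL fusions keep active, was at 521, 469.8 and 476 TPM in MA9-IL-34 and 434, 456 and 488 TPM in MA9-c-Kit-, and Meis1, its partner, at 103.6, 82.7 and 91.2 TPM in MA9-IL-34 and 125, 113 and 118 TPM in MA9-c-Kit- libraries. Neither was counted as different. Mef2c and Mecom, further factors of MLL leukemia, were off. Mef2c was at 0.02, 0 and 0.02 TPM in MA9-IL-34 and 227, 231 and 270.0 TPM in MA9-c-Kit-, and 163, 134 and 271 TPM in MA9-c-Kit+ libraries (limma, log2 fold change -7.90 with a standard error of 0.22, adjusted p = 8.53e-08). Mecom was at 0, 0 and 0.06 TPM in MA9-IL-34 and 21.6, 25.7 and 26.99 TPM in MA9-c-Kit-. Flt3, a receptor of progenitors, was at 0.74, 3.61 and 0.79 TPM in MA9-IL-34 and 179.6, 99.1 and 87.3 TPM in MA9-c-Kit- (limma, log2 fold change -5.59 with a standard error of 0.85, adjusted p = 0.000649). Those of the list that rose included Kit, the gene of the sort, and others that the article names for these cells. Fgl2, given after them, is named by the article but is not in the list. Sox13, an HMG-box factor, was at 45.3, 60.2 and 62.3 TPM in MA9-IL-34 and 4.35, 3.61 and 2.87 TPM in MA9-c-Kit- (limma, log2 fold change 3.63 with a standard error of 0.27, adjusted p = 1.16e-05). Ikzf2, which encodes Helios, was at 53.4, 36.7 and 43.1 TPM in MA9-IL-34 and 1.53, 0.98 and 1.17 TPM in MA9-c-Kit- (limma, log2 fold change 4.34 with a standard error of 0.19, adjusted p = 6.06e-07). Prom1, or CD133, was at 11.3, 18.5 and 12.98 TPM in MA9-IL-34 and 0.55, 0.17 and 0.47 TPM in MA9-c-Kit-. Fgl2, a fibrinogen-like protein, was at 166, 118 and 147 TPM in MA9-IL-34 and 7.57, 7.85 and 7.34 TPM in MA9-c-Kit- (limma, log2 fold change 4.06 with a standard error of 0.23, adjusted p = 2.51e-06). Of 11 measured genes of MYC, MYB and their partners (13 listed) 3 rose and 1 fell (median 0.29), beside 11.3% and 12.7% of all genes. Myb and Myc, which drive growth of leukemic progenitors, rose. Myb was at 639.9, 553 and 648 TPM in MA9-IL-34 and 185, 191 and 164 TPM in MA9-c-Kit- and Myc at 135, 178 and 209 TPM in MA9-IL-34 and 29.9, 33.9 and 28.5 TPM in MA9-c-Kit-, and Mxd1, a repressor that competes with MYC for MAX, fell by 1.17 on the log2 scale. Of the genes given here with levels, groups overlapped for Hoxa9 only. Over the lists groups did not overlap for 16 of 24 regulators and 8 of 11 MYC and MYB genes, beside 64.0% of all genes tested. Lin28a, the RNA-binding protein that blocks maturation of let-7, was close to absent in MA9-c-Kit- cells, at 51.4, 50.3 and 42.9 TPM in MA9-IL-34 and 0.05, 0.04 and 0.03 TPM in MA9-c-Kit- (limma, log2 fold change 5.56 with a standard error of 0.31, adjusted p = 2.04e-06).

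Genes of DNA replication were mostly higher, by close to 2-fold. Of 26 genes of origin licensing and firing 12 passed the limit, beside 11.3% of all genes. At an adjusted p of 0.05 in limma with no minimum fold 20 were higher, beside 26.6% of all genes. Their median was 0.98 and 0 fell. Mcm6, a subunit of the replicative helicase, was at 295, 227 and 270.0 TPM in MA9-IL-34 and 76.7, 124 and 114 TPM in MA9-c-Kit- (limma, log2 fold change 1.34 with a standard error of 0.21, adjusted p = 0.000687). Mcm3 and Mcm7 of the same ring had log2 fold changes of 1.36 and 1.37. In all 3, MA9-c-Kit- replicate 1 was the lowest library. Recql4, a helicase of origin firing, was at 22.5, 18.9 and 22.6 TPM in MA9-IL-34 and 5.24, 5.12 and 6.95 TPM in MA9-c-Kit- (limma, log2 fold change 1.73 with a standard error of 0.15, adjusted p = 2.87e-05). Fork genes had 10 of 26 higher (median 0.95), with Lig1, the ligase of Okazaki fragments, at 1.34 and Pold1, the catalytic subunit of polymerase delta, at 1.32 on the log2 scale. With no minimum fold 25 fork genes were higher and 1 lower at an adjusted p under 0.05 (limma). The lower gene had a log2 fold change of -0.97, just short of the limit, and up to 1 fork gene was called lower under the alternatives. Pcna, the sliding clamp, had a log2 fold change of 0.69, below the limit. Nucleotide synthesis had 14 of 25 higher (median 1.00), with Umps of pyrimidine synthesis at 59.4, 50.97 and 56.6 TPM in MA9-IL-34 and 17.02, 21.6 and 18.4 TPM in MA9-c-Kit-. Histone chaperones and maintenance methylation had 5 of 12 higher (median 0.92). Chaf1a, which loads histones behind the fork, had a log2 fold change of 1.38 and Dnmt1, the maintenance methyltransferase, of 1.21. Counts near a median of 1 turn on the limit and on single libraries. Without MA9-c-Kit- replicate 1 the higher genes were 5 for the fork and 3 for nucleotide synthesis, and without MA9-c-Kit- replicate 2 they were 9 for histone chaperones.

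Mitotic and repair genes differed in the same direction. All 30 measured mitotic genes had a positive log2 fold change, 25 had an adjusted p under 0.05 (limma) and 10 passed the 2-fold limit, with a median of 0.78. Over all genes tested 26.6% were higher at that adjusted p and 11.3% past the limit, and the median was 0.06. Bub1, a kinase of the spindle checkpoint, was at 39.9, 32.5 and 39.7 TPM in MA9-IL-34 and 15.3, 18.1 and 14.1 TPM in MA9-c-Kit- (limma, log2 fold change 1.19 with a standard error of 0.14, adjusted p = 0.000135). Cdk1, the kinase of mitotic entry, was at 179.6, 172 and 191 TPM in MA9-IL-34 and 78.8, 102 and 83.7 TPM in MA9-c-Kit- and Top2a, the topoisomerase that untangles chromosomes, at 207, 165 and 196 TPM in MA9-IL-34 and 80.5, 111 and 90.2 TPM in MA9-c-Kit-. Both lay close to 2-fold and lost the call under several alternatives, median-of-ratios scaling and leaving out MA9-IL-34 replicate 3 or MA9-c-Kit- replicate 1 or 3 among them. The list held 6 higher genes without MA9-c-Kit- replicate 1 and also 6 with median-of-ratios scaling. Mki67, the proliferation marker, had a log2 fold change of 0.49, below the limit. All 20 genes of homologous recombination and the Fanconi pathway had a positive value, 9 past the limit (median 0.99).

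The promoters of these lists were searched in the same way for E2F words (TTTCCCGC or TTTGGCGC) and for the CHR word of mitotic genes (TTTGAA), on both strands. E2F words were in 8 of 20 promoters of origin licensing and firing, beside 3.58% of all tested genes, 4.57% of genes called higher and 2.43% of genes called lower. They were in 5 of 22 fork, 4 of 11 histone chaperone, 2 of 14 repair, 1 of 22 nucleotide synthesis and 0 of 24 mitotic promoters. CHR words were in 17 of 24 mitotic, 5 of 20 origin, 4 of 11 histone chaperone, 2 of 22 fork, 2 of 22 nucleotide synthesis and 1 of 14 repair promoters, beside 14.7% of all, 16.0% of those higher and 15.3% of those lower. None of the words contains another. The stretches shown hold 1 such word each, from the helicase gene Mcm6 (minus strand, chr1:128359777-128359846, E2F) and from Cdk1 (minus strand, chr10:69352946-69353015, CHR) and Top2a (minus strand, chr11:99024190-99024259, CHR, written TTCAAA as on the opposite strand), with the word in capitals.
Mcm6: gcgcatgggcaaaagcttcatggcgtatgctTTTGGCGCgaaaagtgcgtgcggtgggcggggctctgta
Cdk1: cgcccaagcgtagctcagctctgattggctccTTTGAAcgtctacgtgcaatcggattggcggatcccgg
Top2a: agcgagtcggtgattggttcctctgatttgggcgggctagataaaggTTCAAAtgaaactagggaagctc
Mcm6, Cdk1 and Top2a were all higher in MA9-IL-34 cells, the last pair close to the 2-fold limit.

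**Figure D4:**
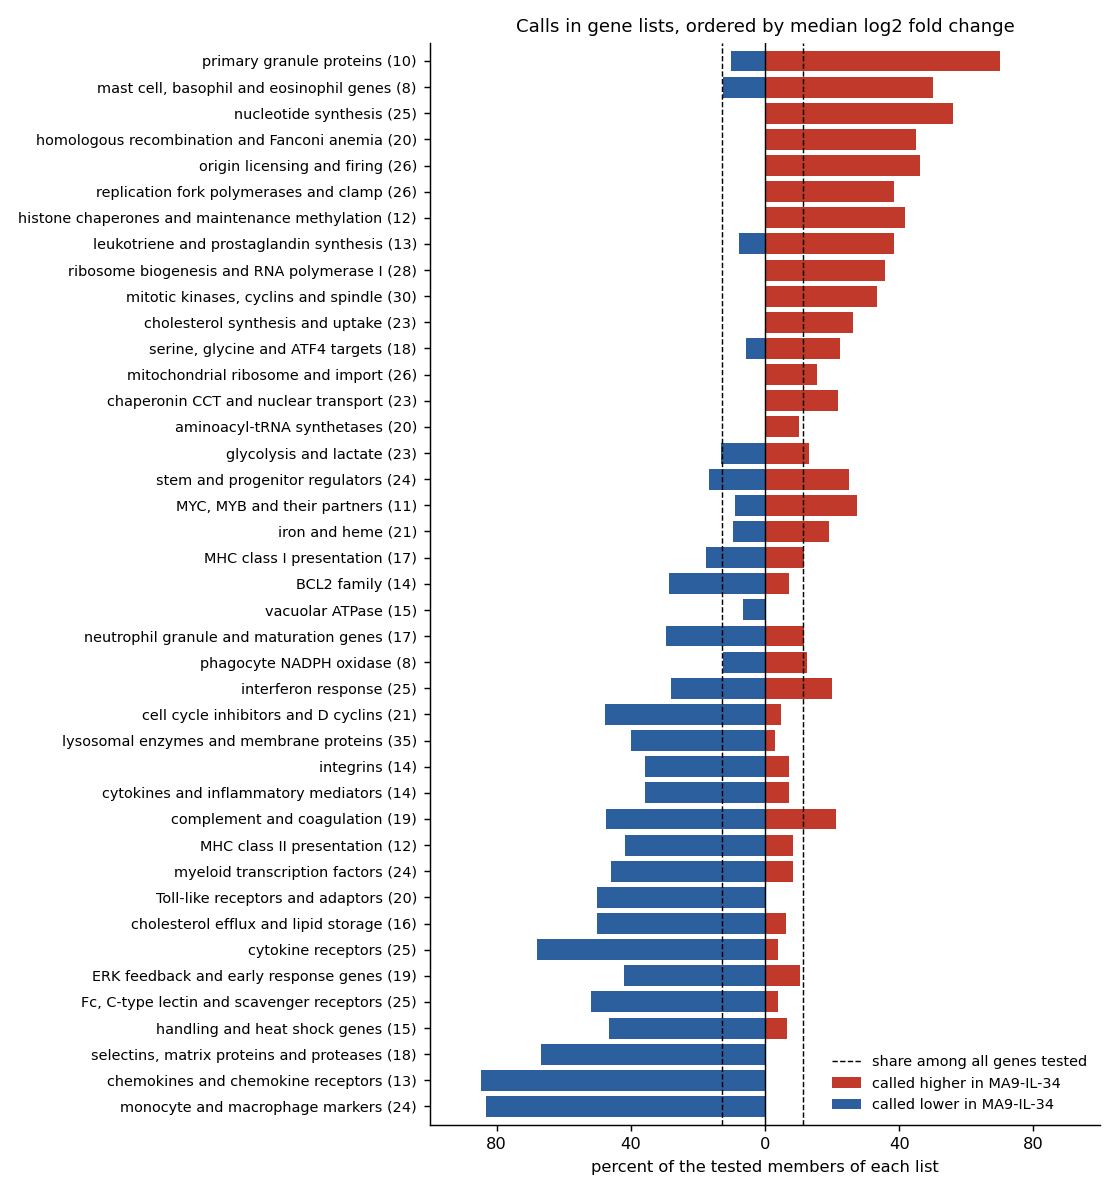
Percent of the tested members of each gene list called higher (right) or lower (left) in MA9-IL-34 cells, for lists with at least 8 tested members (number in brackets), ordered by median log2 fold change. Dashed lines mark the shares over all genes, 11.3% and 12.7%. The lists were chosen with earlier results of these data known. Primary granule, mast cell, nucleotide synthesis, repair and replication lists lie at the top with few or no lower genes, and monocyte, chemokine and matrix lists at the bottom with no higher genes.

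Growth genes had smaller differences. Ribosome biogenesis had 10 of 28 higher and 0 lower (median 0.84), with 26 at an adjusted p under 0.05 and no minimum fold (limma), beside 26.6% of all genes. Gar1, of the RNA-modifying snoRNPs, was at 145, 142 and 147 TPM in MA9-IL-34 and 25.6, 32.7 and 70.8 TPM in MA9-c-Kit- (limma, log2 fold change 1.86 with a standard error of 0.30, adjusted p = 0.000876). The number of higher genes was 5 without MA9-c-Kit- replicate 1 and 17 without MA9-c-Kit- replicate 3. Mitochondrial ribosome and import had 4 of 26 higher (median 0.59), near the 11.3% over all genes, and 10 without MA9-c-Kit- replicate 3. The chaperonin CCT and nuclear transport had 5 of 23 higher (median 0.57), and 2 or 8 without MA9-c-Kit- replicate 1 or 3. Aminoacyl-tRNA synthetases had 2 of 20 (median 0.53), below the share over all genes. All of these lists had 0 lower genes.

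Cholesterol synthesis and uptake had 6 of 23 (24 listed) higher and 0 lower (median 0.70). Fdps of the mevalonate pathway had a log2 fold change of 1.14 and lost the call without MA9-IL-34 replicate 1 or MA9-c-Kit- replicate 1. Among genes that export or store lipid more fell than rose. Of 16 measured (20 listed) 8 fell and 1 rose (median -1.09). Apoe, or apolipoprotein E, was at 32.1, 56.1 and 57.4 TPM in MA9-IL-34 and 639, 805 and 362 TPM in MA9-c-Kit- (limma, log2 fold change -3.58 with a standard error of 0.32, adjusted p = 3.22e-05). Lpl, the lipoprotein lipase, was at 0.77, 0.44 and 0.28 TPM in MA9-IL-34 and 67.1, 67.8 and 34.2 TPM in MA9-c-Kit-. Lpcat2, an acyltransferase that makes platelet-activating factor, was the member that rose, at 27.1, 19.3 and 20.8 TPM in MA9-IL-34 and 0.03, 0.03 and 0.06 TPM in MA9-c-Kit- (limma, log2 fold change 4.48 with a standard error of 0.18, adjusted p = 3.72e-07). Leukotriene and prostaglandin synthesis had 5 higher and 1 lower of 13 (19 listed), with Lta4h, which makes leukotriene B4, at 619.7, 583 and 619.7 TPM in MA9-IL-34 and 171, 206 and 199.7 TPM in MA9-c-Kit- (limma, log2 fold change 1.66 with a standard error of 0.16, adjusted p = 5.48e-05). The number of higher genes was 3 without MA9-IL-34 replicate 1 or 3. In iron and heme metabolism 4 of 21 (22 listed) rose and 2 fell (median 0.14), beside 11.3% and 12.7% of all genes. Without MA9-IL-34 replicate 2 or MA9-c-Kit- replicate 1 or 2, 2 rose. Alas1, which starts heme synthesis, was at 1215, 1166 and 1345 TPM in MA9-IL-34 and 275, 286 and 336 TPM in MA9-c-Kit- (limma, log2 fold change 2.05 with a standard error of 0.19, adjusted p = 3.88e-05). Hmox1, which breaks heme down, was at 8.6, 11.5 and 8.62 TPM in MA9-IL-34 and 123, 125 and 120.3 TPM in MA9-c-Kit- (limma, log2 fold change -3.56 with a standard error of 0.14, adjusted p = 2.95e-07). Slc11a1, an iron and manganese carrier of phagosomes, was at 1.35, 2.85 and 1.2 TPM in MA9-IL-34 and 68.01, 48.8 and 57.7 TPM in MA9-c-Kit- libraries. Glycolysis had 3 genes in each direction of 23 (24 listed), near the share over all genes. Pfkfb3, which raises the flux through phosphofructokinase, was higher at 65.8, 67.8 and 69.02 TPM in MA9-IL-34 and 14.9, 13.9 and 14.5 TPM in MA9-c-Kit-, and Ldhb, a lactate dehydrogenase subunit, lower at 1.41, 2.44 and 2.99 TPM in MA9-IL-34 and 58.7, 67.7 and 38.1 TPM in MA9-c-Kit-. Of 18 genes of serine and glycine synthesis and other ATF4 targets (22 listed) 4 rose and 1 fell (median 0.68). Xdh, the xanthine dehydrogenase of purine breakdown, was at 1.38, 1.88 and 1.02 TPM in MA9-IL-34 and 432, 301 and 336 TPM in MA9-c-Kit- (limma, log2 fold change -7.20 with a standard error of 0.21, adjusted p = 9.34e-08).

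Most inhibitors of the cell cycle that changed were lower. Of 21 inhibitors, D cyclins and E2F genes (22 listed) 10 fell and 1 rose (median -0.61). Cdkn1a, which encodes p21, was at 9.39, 9.93 and 10.3 TPM in MA9-IL-34 and 61.5, 58.5 and 51.8 TPM in MA9-c-Kit- (limma, log2 fold change -2.42 with a standard error of 0.13, adjusted p = 1.4e-06). Cdkn1b, which encodes p27, was at 20.6, 21.2 and 20.5 TPM in MA9-IL-34 and 88.1, 78.9 and 70.2 TPM in MA9-c-Kit-, and Cdkn2d, which encodes p19, at 27.2, 29.2 and 27.8 TPM in MA9-IL-34 and 112, 129.8 and 136 TPM in MA9-c-Kit-. Cdkn2c, which encodes p18, rose, at 111, 82.3 and 88.2 TPM in MA9-IL-34 and 32.9, 38.7 and 36.5 TPM in MA9-c-Kit- (limma, log2 fold change 1.35 with a standard error of 0.28, adjusted p = 0.00369). The D cyclin Ccnd3 fell by 1.44 and the E2F gene E2f2 by 3.15 on the log2 scale. In the BCL2 family 4 of 14 (18 listed) fell and 1 rose, beside 12.7% and 11.3% of all genes. Mcl1, a survival protein of myeloid cells, was at 71.5, 83.2 and 72.1 TPM in MA9-IL-34 and 266, 244 and 196 TPM in MA9-c-Kit-, and Bmf, which counters such proteins, at 1.41, 2.66 and 2.28 TPM in MA9-IL-34 and 47.7, 35.1 and 36.1 TPM in MA9-c-Kit-. Feedback and early response genes of ERK had 8 lower and 2 higher of 19 (24 listed, median -1.27). Dusp6, the phosphatase of ERK, was at 0.60, 0.95 and 1.16 TPM in MA9-IL-34 and 28.6, 26.2 and 23.4 TPM in MA9-c-Kit-, and 22.5, 24.97 and 31.4 TPM in MA9-c-Kit+ libraries (limma, log2 fold change -3.84 with a standard error of 0.18, adjusted p = 7.58e-07). Spry2, a further inhibitor of this pathway, was higher, at 20.5, 26.5 and 23 TPM in MA9-IL-34 and 4.16, 5.39 and 6.11 TPM in MA9-c-Kit-.

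Of 15 genes that respond to cell handling and heat 7 fell, 1 rose and 7 were not called (median -1.51), and 4 fell without MA9-c-Kit- replicate 1. The heat shock genes Hspa1a, Hspa1b and Dnajb1 were not called, and Hsph1, the gene that rose, lost its call under 5 alternatives. Jun was at 11.2, 59.3 and 58.3 TPM in MA9-IL-34 and 428, 281 and 120.03 TPM in MA9-c-Kit-, and Fos at 43.5, 217 and 201 TPM in MA9-IL-34 and 890.05, 575 and 150.04 TPM in MA9-c-Kit-. Fos overlapped between the groups and was not counted (adjusted p = 0.152, limma). Zfp36, which destabilises cytokine messages, was at 44.6, 104 and 120.3 TPM in MA9-IL-34 and 632, 562 and 212 TPM in MA9-c-Kit-. MA9-c-Kit- replicate 1 was the highest of all libraries compared in each of these 3 genes and replicate 3 the lowest of its group. The part of handling in the ERK, chemokine and cytokine results was not tested.

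Of 8 measured genes of mast cells, basophils and eosinophils 4 rose, 1 fell and 3 were not called, and 7 listed genes did not pass the filter. Hdc, which makes histamine, was at 234, 173 and 206 TPM in MA9-IL-34 and 0.14, 0.36 and 0.18 TPM in MA9-c-Kit-, and 3.85, 10.02 and 2.76 TPM in MA9-c-Kit+ libraries (limma, log2 fold change 7.38 with a standard error of 0.35, adjusted p = 7.78e-07). Siglecf, a lectin of eosinophils, was at 163, 120.1 and 164 TPM in MA9-IL-34 and 4.16, 2.5 and 1.23 TPM in MA9-c-Kit- (limma, log2 fold change 5.44 with a standard error of 0.53, adjusted p = 5.59e-05). Cpa3, the mast cell carboxypeptidase, was at 47.1, 11.3 and 16.4 TPM in MA9-IL-34 and 1.74, 0.75 and 0.92 TPM in MA9-c-Kit-. Prg2, the major basic protein of eosinophils, was at 12.6, 6.33 and 7.51 TPM in MA9-IL-34 and 0, 0.33 and 0 TPM in MA9-c-Kit-. Other defining genes were absent or even. Fcer1a was listed at 0 in all libraries, Epx did not exceed 0.24 TPM in the libraries compared, and Mcpt8 was at 24.5 to 37.6 TPM in MA9-IL-34 and 17.2 to 34.5 TPM in MA9-c-Kit- libraries. Ear2, the member that fell, lost its call under 14 alternatives and its groups overlap. Nkg7, a granule membrane protein of cytotoxic lymphocytes, was at 185, 153 and 209 TPM in MA9-IL-34 and 0.68, 0.45 and 0.14 TPM in MA9-c-Kit- (limma, log2 fold change 7.02 with a standard error of 0.36, adjusted p = 1.35e-06), while Cd3e did not exceed 0.36 TPM. Mgl2, a lectin of macrophages and dendritic cells, was at 123, 122 and 129 TPM in MA9-IL-34 and 0.53, 2.17 and 0.26 TPM in MA9-c-Kit-. Il22ra2, the soluble antagonist of IL-22, was at 97.9, 56.3 and 83.1 TPM in MA9-IL-34 and 0.66, 1.61 and 1.26 TPM in MA9-c-Kit-. Dio2, which activates thyroid hormone, was at 66.7, 52.9 and 50.3 TPM in MA9-IL-34 and 0.77, 1.17 and 0.46 TPM in MA9-c-Kit-, and Ces1d, a carboxylesterase, at 60.4, 59.1 and 58.7 TPM in MA9-IL-34 and 0, 0 and 0 TPM in MA9-c-Kit-. These last genes were named for the size of their rise, by a rule that takes only genes whose groups do not overlap.

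MA9-c-Kit+ cells mostly lay between the groups. These libraries entered the same fit, and their position is a description with no test. Their mean log2 level lay between the means of both groups for 1313 of the 1557 higher genes, of which 784 stood nearer MA9-IL-34 and 529 nearer MA9-c-Kit- cells. Among the 1740 lower genes it lay between for 1421, of which 1053 stood nearer MA9-IL-34 and 368 nearer MA9-c-Kit- cells. Placed from 0 at MA9-c-Kit- to 1 at MA9-IL-34, the median position was 0.59 for higher and 0.72 for lower genes. Mcm6 was at 179.9, 264 and 205 TPM and Mpo at 6711, 8177 and 1639 TPM in MA9-c-Kit+ libraries. Genes that stayed at the MA9-c-Kit- end were Xist, Xlr, Xlr4a, Ces1d and Lpcat2 among the higher ones. Mef2c, Mecom, Dusp6, Ldhb and Spred1 did so among the lower ones. Mmp8 and E2f2 were at the MA9-IL-34 end, Mmp8 at 0.78, 0.81 and 0.69 TPM and E2f2 at 7.5, 8.6 and 9.96 TPM in MA9-c-Kit+ libraries. Past the MA9-IL-34 mean were 151 higher and 233 lower genes, and past the MA9-c-Kit- mean 93 and 86.

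**Figure D5:**
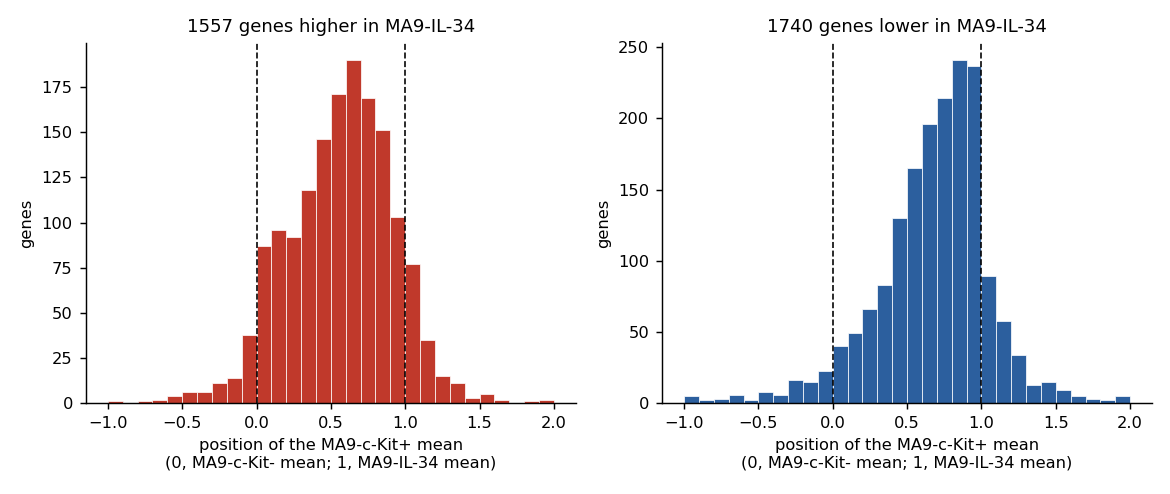
Position of the MA9-c-Kit+ mean for the 1557 higher (left) and 1740 lower genes (right), on a scale from 0 at the MA9-c-Kit- mean to 1 at the MA9-IL-34 mean of log2(TPM + 1), with counts of genes on the y axis and values beyond -1 or 2 drawn in the outermost bars. Most genes lie between the dashed lines, and the medians are 0.59 and 0.72.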

How the data were processed

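RNA of sorted mouse leukemia cells was sequenced with a TruSeq v2 kit, per the labels. The authors deposited 1 table of TPM values (transcripts per 1e6 transcripts, normalized for gene length and library total), with 55536 genes and 9 columns, and no read counts. The labels name RNA-seq where the article's methods describe a microarray. The aligner is not given in the sources used here. A column named without the minus sign was taken as MA9-c-Kit- replicate 3. Gene identifiers were looked up in GENCODE M21 (55450 found). Genes with at least 1 TPM in 3 of 9 libraries were tested on log2(TPM + 1) with limma 3.58.1 (R 4.3.3, trended prior), with 3 group means and 6 residual degrees of freedom, and Benjamini-Hochberg adjustment over 13722 genes. The code was tested on simulated data. Members and lists were chosen with earlier results of these data known. Genes named were, in each direction, the 25 largest changes at 20 TPM or more without overlap, the 15 largest differences in TPM, the 15 most abundant on-off genes, up to 9 per list by p, level or opposite direction, and genes the article names. Some genes that this rule takes are not reported here. Markers of cell types are given as levels. Promoter sequences are RefSeq on GRCm38.p6 (9557 genes matched). Same-numbered libraries of the c-Kit- and c-Kit+ sorts deviated together from their group means (correlations of 0.202, 0.239 and 0.443). Pairs with different numbers had correlations of -0.324 to 0.159. The main fit treated all 9 libraries as independent, and a block for the same-numbered pairs was tried as an alternative. Other scalings, filters, pseudocounts, samples and a replicate block were tried.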

Additional observations from a re-analysis of the deposited data

How the results depend on the processing

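With an adjusted p under 0.05 and no minimum fold, 6864 genes differed, 3654 higher and 3210 lower, in place of 3297 (limma). With the other alternatives run the total was 2580 to 3805, and 0 shared calls changed sign. It was 3247 with median-of-ratios scaling (3160 shared), 3181 with no filter, 2580 with the filter of 5 TPM, 3262 with quantile normalization and 3805 with a pseudocount of 0.1. Leaving out a library gave 3008 to 3465 genes, the lowest without MA9-c-Kit- replicate 1 and the highest without MA9-c-Kit- replicate 3. Leaving out mitochondrial genes, an alternative chosen after seeing the data, gave 3362. Replicate numbers did not pair MA9-IL-34 with MA9-c-Kit- libraries (correlations of deviations of -0.000871, -0.0727 and -0.08), and the fit with the replicate block gave 3319 genes, 3277 of them shared. With it 4 erythroid genes were lower in place of 2. With a random replicate block for the MA9 libraries alone, chosen after seeing the data, 3304 genes differed, 3286 of them shared. With no filter 3 genes of leukotriene and prostaglandin synthesis were higher in place of 5. Of 304 genes named by the rule, 35 changed their call under at least 1 alternative. The cause of these changes was not tested. Depth is unknown, so the precision of low values cannot be stated.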
